A study of Mus musculus with 8 samples.

Results

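Loss of CypD at normal oxygen was examined by comparing CypD KO with WT B16F10 cells across every gene reaching 1 TPM in 2 or more of their 4 libraries. This rule kept 12921 of the 55414 genes in the table. TPM is a length-corrected measure of the share of a library's transcripts that a gene contributes. B16F10 is a pigmented mouse melanoma line of C57BL/6 origin. The WT group was the wild-type line, and the CypD KO group carried a Cas9-edited Ppif gene. Each group had 2 libraries, made after 24 h at 21% oxygen. Another 4 libraries, made after 24 h at 1% oxygen, shared the estimate of the spread. These were 2 each of Control cells (stable line with empty pcDNA vector) and CypD OE cells (labelled as a stable line overexpressing Ppif).

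According to the study's methods, guide RNA and Cas9 vectors were transfected into the cells and clones surviving puromycin were selected. Neither the methods nor the labels say whether the RNA came from 1 clone, or that the WT cells underwent transfection and selection. The effects of Ppif loss, of selection and of differences between clones cannot be told apart in these libraries. Nothing in the labels says that replicates were separate cultures, so p-values measure the spread between libraries, which may be technical. An exact permutation test of 2 against 2 libraries (two-sided) cannot give a p under 0.333, and genes were therefore tested with limma, a linear model fitted across all genes.

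CypD is a peptidyl-prolyl isomerase of the mitochondrial matrix and is best known as the regulator of the mitochondrial permeability transition pore, a channel of the inner membrane. When the pore opens, calcium and small solutes leave the matrix. The identity of the channel is debated, and ATP synthase and the adenine nucleotide translocases are the candidates most often named. In melanoma, cells can shift between a pigmented state driven by MITF and less differentiated states with stronger adhesion and inflammatory gene expression.

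The spacing of low TPM values gave the depth. These 4 libraries held an estimated 25800000 to 29800000 fragments, and the smallest step, 1 fragment on a transcript with 1000 usable bases, came to 0.0855 to 0.097 TPM. Genes with a value above 0 numbered 18036 and 17942 in WT and 19692 and 19456 in CypD KO. The median absolute difference between the 2 replicates of a group was 0.097 (WT) and 0.0908 (CypD KO) on the log2 scale. The 7 melanocyte markers were all present, with a sum of 15755 and 15665 TPM in WT and 12587 and 12433 TPM in CypD KO, and the T cell and keratinocyte markers were all under 1 TPM.

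Ppif itself, at chr14:25694522-25707332 on the plus strand of GRCm39, had 50.7 and 50 TPM in WT against 10.4 and 12.1 TPM in CypD KO. The groups did not overlap, and the ratio of CypD KO to WT was 0.224 (log2 fold change -2.07 ± 0.0735 SE, limma adjusted p = 2.6e-06). An edited gene can still be transcribed, and a value per gene does not show which exons the fragments came from. The study's methods report that the Ppif deletion was checked in genomic DNA and that western blots showed no CypD protein. In RNA from many cells, a lower level in every cell and fewer cells with the transcript cannot be told apart, here and for the genes that follow.

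In the comparison of CypD KO with WT, 4096 genes (31.7%) were higher and 2486 (19.2%) lower at a limma adjusted p under 0.05. Of these, 1009 genes (7.81%) were at least 2-fold higher and 203 (1.57%) at least 2-fold lower. Higher genes made up 62.2% of all calls and 83.3% of the 2-fold calls. The WT and CypD KO libraries did not overlap in 75.8% of the genes tested (5892 higher and 3900 lower in CypD KO). Absence of overlap was thus common, and it is given for single genes as a description. The median log2 fold change over all genes was 0.0915, and 90 percent of genes lay between -0.632 and 1.27. With libraries rescaled by the median of ratios, the median moved by -0.101, and 3221 genes were higher and 3507 lower (47.9% of calls higher). A correction for GC content and transcript length moved the median by -0.163, with 2817 genes higher and 4098 lower (40.7% of calls higher). Correction by chromosome medians gave 3235 and 3312 (49.4% higher). The balance of small changes therefore depended on the scaling, whereas among 2-fold calls the higher genes remained 76.7%, 70.3% and 76.2% under these 3 settings.

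**Figure D1:**
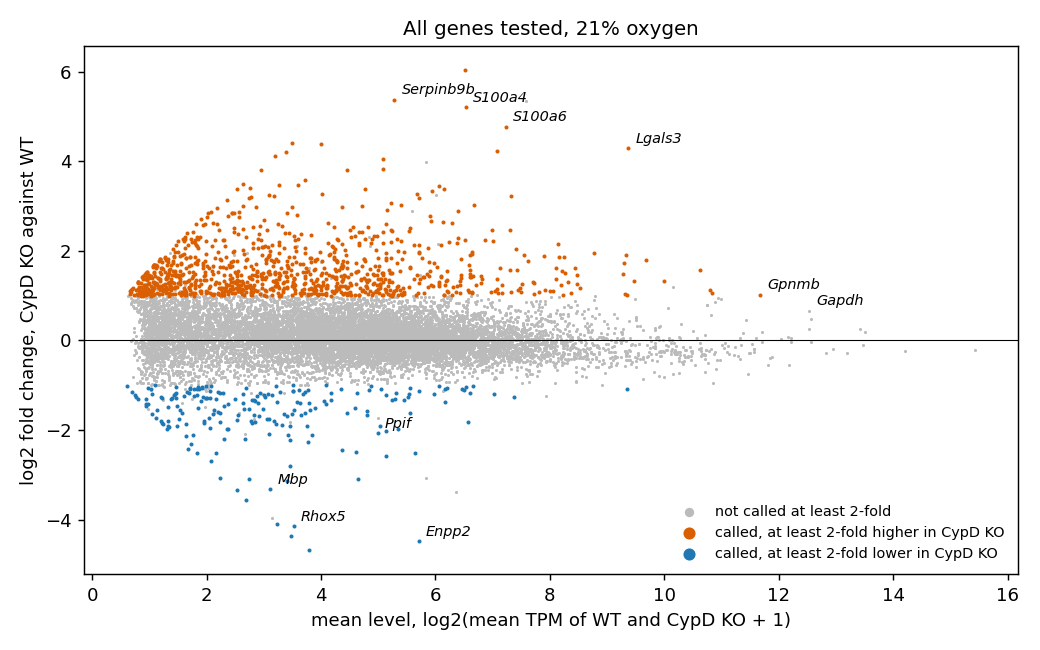
Log2 fold change of CypD KO against WT (vertical axis) against the mean level as log2 of mean TPM + 1 (horizontal axis) for the 12921 genes tested, 1 point per gene. Orange points are the 1009 genes called at least 2-fold higher and blue points the 203 called at least 2-fold lower, and large increases reach abundant genes such as Lgals3 while the largest decreases stay among genes of low or middle level.

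The direction varied with the level of a gene. Among the 2109 genes with a mean under 3 TPM the median log2 fold change was 0.215, and among the 1638 genes of 100 TPM or more it was -0.0803. In the latter group 723 genes were lower and 466 higher, and only 3 were at least 2-fold lower against 67 at least 2-fold higher. Long noncoding RNAs (739 tested) had a median of 0.246, with 79 at least 2-fold higher and 16 at least 2-fold lower. These were 10.7% and 2.17% of them, against 7.81% and 1.57% over all genes. Processed pseudogenes (545 tested) had a median of -0.0896.

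Hypoxia and epithelial-mesenchymal transition were the pathways on which the study concentrated. Of the 174 tested genes in a hypoxia or a transition list, 84 were at least 2-fold higher and 3 at least 2-fold lower, where 7.81% and 1.57% of all genes were. These lists, of 107 and 144 genes, do not hold every gene of either pathway. The other 925 genes at least 2-fold higher and 200 at least 2-fold lower lay outside these lists, and the following concerns them and the pathways they belong to.

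The 10 largest increases outside these lists were taken among called protein-coding genes, histones left aside. A gene also needed at least 10 TPM in the higher group and no overlap of the WT and CypD KO libraries. The 10 included genes of protease inhibition, calcium binding and innate immunity. Serpinb9b, a clade B serpin (an intracellular protease inhibitor), was at 0.47 and 1.26 TPM in WT against 75.3 and 74.4 TPM in CypD KO (log2 fold change 5.38 ± 0.197 SE, limma adjusted p = 2.79e-06). S100a4, a calcium-binding protein linked to cell motility, rose from 6.68 and 2.07 TPM to 176 and 180 TPM (5.2 ± 0.384, adjusted p = 5.42e-05). Its neighbour S100a6 rose from 11.2 and 8.22 TPM to 288 and 290 TPM (4.77 ± 0.211, adjusted p = 6.13e-06). Separation of the libraries was part of the rule that chose these 3 genes, and the WT libraries of S100a4 differed widely from each other.

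Lgals3 encodes galectin-3, a secreted and cytosolic lectin, and was the most abundant gene among the largest increases. It was at 68 and 59.4 TPM in WT against 1270 and 1250 TPM in CypD KO, 19.8 times the WT mean (4.29 ± 0.0761 SE, limma adjusted p = 3.99e-07). Aqp5, a water channel, rose from 0.29 and 0.61 TPM to 32.4 and 26.7 TPM. Palld, an actin-associated scaffold protein, rose from 3.03 and 2.77 TPM to 63 and 63.4 TPM, and Edil3, an integrin-binding matrix protein, from 1.07 and 0.92 TPM to 21 and 21.4 TPM. Serpinb8, another clade B serpin, rose from 0.9 and 1.17 TPM to 24.1 and 22.5 TPM. Ifi211, of the DNA-sensing PYHIN family, was listed at 0 in each WT library but had 16.5 and 16.1 TPM in CypD KO. Trim30a, an interferon-inducible TRIM protein, was at 0.03 and 0.05 TPM in WT against 13.5 and 13.4 TPM in CypD KO. Both belong to families of similar genes, among which the division of reads is uncertain.

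Under the same rule, the largest decrease was that of Enpp2, which encodes autotaxin, the secreted enzyme that makes lysophosphatidic acid. Enpp2 was at 96.6 and 101 TPM in WT against 3.35 and 3.63 TPM in CypD KO, 28.3 times lower on the means (log2 fold change -4.48 ± 0.0566 SE, limma adjusted p = 1.97e-07). Rhox5, an X-linked homeobox gene, was at 21.4 and 20 TPM in WT against 0.5 and 0 TPM in CypD KO. Mbp, encoding myelin basic protein, fell from 16 and 13.4 TPM to 0.59 and 0.54 TPM. Both genes were nearly silent in each CypD KO library.

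Mmp11, the matrix metalloproteinase stromelysin-3, fell from 43.2 and 44.2 TPM to 4.41 and 4.08 TPM. Abca12, a lipid transporter, fell from 18.6 and 17.7 TPM to 1.87 and 1.59 TPM. Mest, an imprinted gene, fell from 60.9 and 57.7 TPM to 9.51 and 8.71 TPM. Bfsp2 (a lens filament protein), Gpm6a (a membrane glycoprotein of neurons) and Rassf2 (a RAS association domain protein) were lower by 2.52, 2.5 and 2.45 on the log2 scale respectively. ENSMUSG00000116563 also fell, but this gene overlaps Mkks on the same strand and varied from 11.6 to 24.4 TPM between the WT libraries, so its value is uncertain. Of the other genes named here, Enpp2, Mmp11, Mest, Pmel, Gadd45a and Ccnd1 are among those that overlap a gene on the other strand, and whether the counting used strand is not given in the sources used here.

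**Figure D2:**
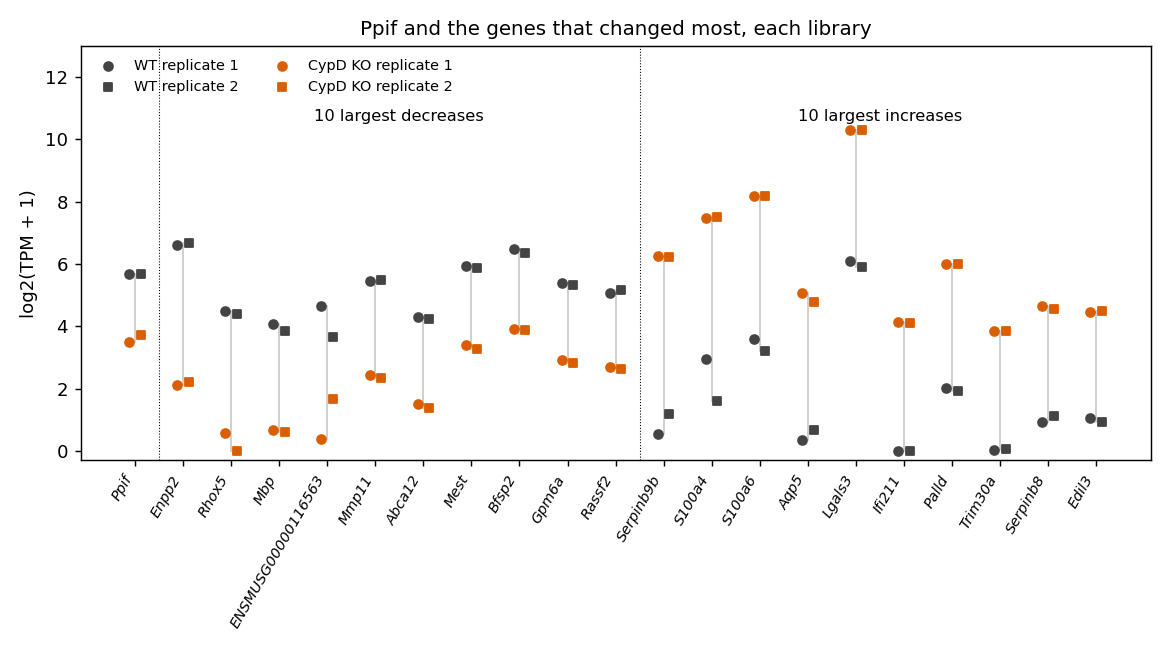
Level as log2(TPM + 1) (vertical axis) of Ppif and of the 10 largest decreases and 10 largest increases outside the hypoxia, transition and histone genes. Each point is 1 library, grey for WT and orange for CypD KO, circles for replicate 1 and squares for replicate 2. The 10 decreases and 10 increases were chosen among genes whose WT and CypD KO libraries lie apart, and those of Ppif lie apart as well.

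A switch between absence and presence was rare. Only 6 protein-coding genes were under 0.1 TPM in both WT libraries and at 5 TPM or more in both CypD KO libraries, namely Ifi211, Trim30a, Ifi204, the protease gene Prss46 and the histone genes H4c8 and H2ac19, the last named being listed at 0 and 0 in WT but at 23.6 and 17.4 TPM in CypD KO. A single gene showed the opposite, Gsta4, a glutathione transferase that conjugates products of lipid peroxidation, at 8.22 and 6.6 TPM in WT and listed at 0 in both CypD KO libraries. Histone transcripts come from near-identical genes, and their values are uncertain.

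By absolute amount, the genes that gained most were Gapdh, the glycolytic enzyme (4648 and 4515 TPM to 7232 and 7261 TPM), Gpnmb, a melanosome and lysosome glycoprotein (2122 and 2210 TPM to 4330 and 4464 TPM), mt-Co2, mt-Co1 and a mitochondrial pseudogene. Those that lost most were mt-Atp8, Eef1a1, Ftl1, Npm1 and another mitochondrial pseudogene. The value of mt-Atp8 (chrM:7766-7969) is uncertain, since it overlaps mt-Atp6 on the same strand. It is also shorter than the estimated fragment length of 210 to 214 bases. Eef1a1, the translation elongation factor, went from 10292 and 10217 TPM to 8489 and 8399 TPM. Npm1, a nucleolar chaperone of ribosome assembly, went from 3483 and 3574 TPM to 2098 and 2113 TPM. Ftl1, the ferritin light chain, went from 5684 and 5296 TPM to 3847 and 3687 TPM. Abundant transcripts of translation were thus lower and a glycolytic and a melanosome transcript higher in CypD KO.

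**Figure D3:**
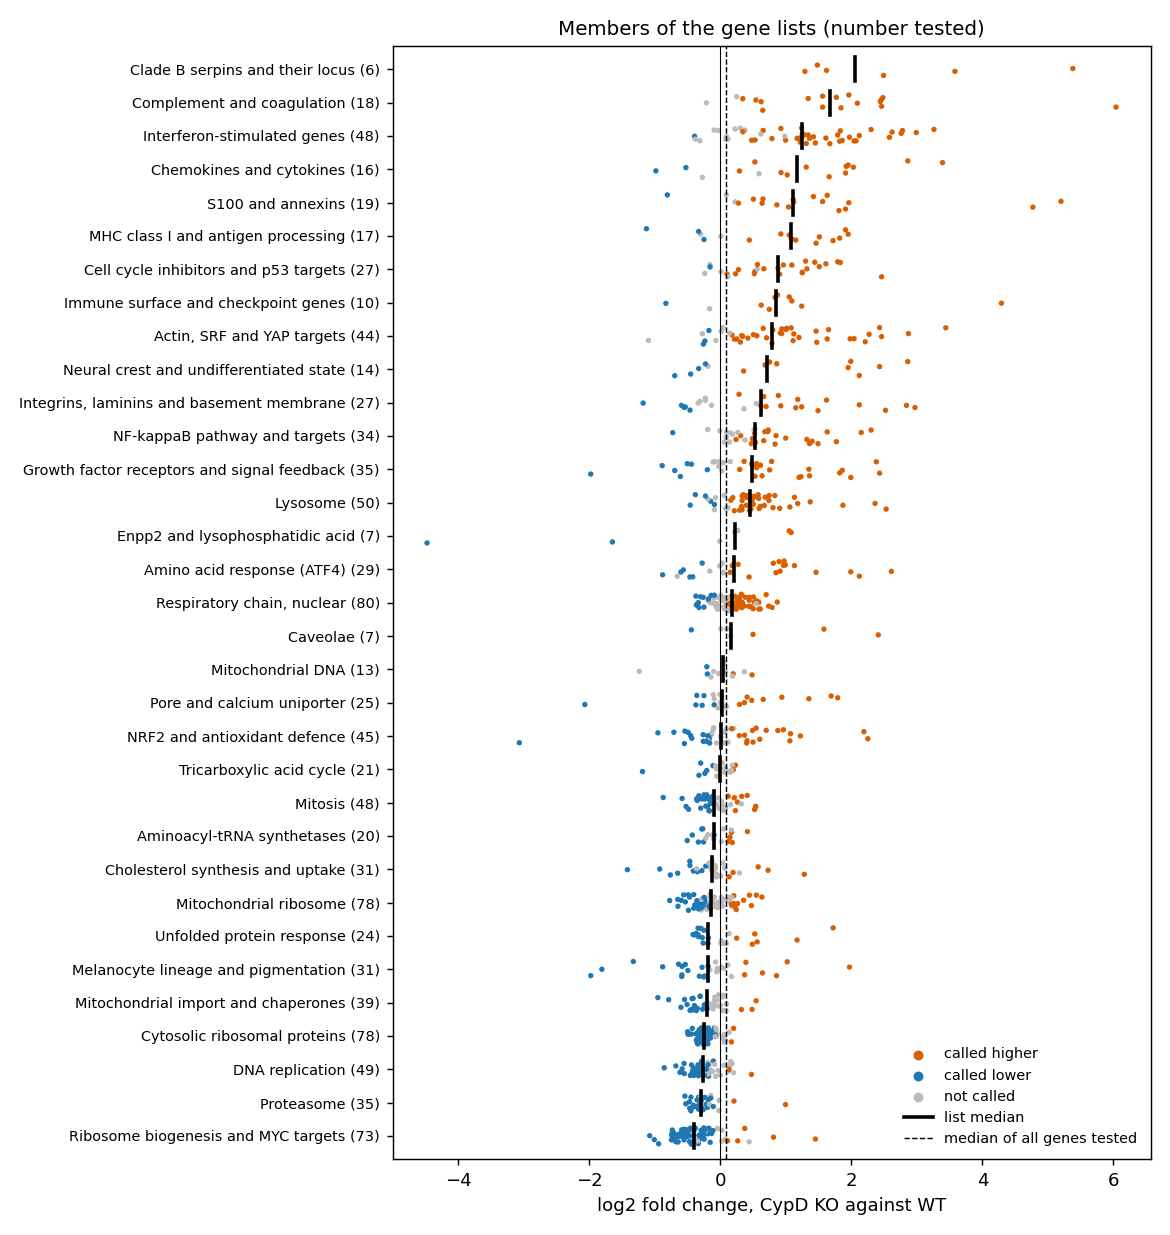
Log2 fold change of CypD KO against WT (horizontal axis) for the tested members of 33 gene lists (rows, with the number tested), 1 point per gene. Points are orange if called higher, blue if called lower and grey if not called, thick bars mark list medians and the dashed line the median of all genes, 0.0915; lists of serpins, coagulation, interferon and cytokine genes lie highest and ribosome biogenesis lowest.

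The list counts below are to be read beside the shares over all genes tested, 31.7% higher and 19.2% lower. For calls of at least 2-fold these shares were 7.81% and 1.57%. Mitochondrial genes were described first because CypD acts in this organelle. Among 25 tested genes of the permeability transition pore and the calcium uniporter, 9 were higher and 6 lower, shares near those over all genes (31.7% and 19.2%). The median of 0.0192 became negative under median-of-ratios rescaling (-0.0945), GC and length correction (-0.114) and chromosome correction (-0.0422). The 2 parts of this list differed. Of 15 pore candidates 3 were higher and 5 lower (median -0.00141), and of 10 calcium transport genes 6 were higher and 1 lower (median 0.328). Tspo, a cholesterol-binding protein of the outer membrane once proposed as a pore component, rose from 16 and 13.5 TPM to 51.5 and 55.4 TPM (log2 fold change 1.79, limma adjusted p = 5.9e-05). Hk2, the hexokinase that binds the outer membrane, rose from 39 and 41.8 TPM to 105 and 104 TPM. Mcub, the inhibitory paralog of the calcium uniporter, rose from 0.56 and 1.08 TPM to 4.84 and 4.82 TPM. All 3 genes were higher in both CypD KO libraries than in either WT library.

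The channel candidates changed little. Atp5a1, the alpha subunit of ATP synthase, fell from 508 and 496 TPM to 389 and 384 TPM, and Slc25a5, an adenine nucleotide translocase, from 896 and 879 TPM to 690 and 692 TPM (limma adjusted p = 5.14e-05 and 0.000279). The other translocase, Slc25a4, was at 380 and 361 TPM in WT against 368 and 383 TPM in CypD KO and was not called (adjusted p = 0.678). Mcu, the uniporter pore, was at 7.97 and 7.52 TPM in WT against 9.19 and 12.2 TPM in CypD KO (adjusted p = 0.0464), a call that was lost under 10 of the 15 alternatives and whose log2 fold change went from 0.407 to 0.221 without CypD KO replicate 2.

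Of 80 nuclear genes of the respiratory chain, 39 were higher and 11 lower, with a median of 0.171, where higher genes also outnumbered lower ones over all genes tested (31.7% and 19.2%). The counts came to 27 higher and 22 lower under median-of-ratios rescaling (median 0.0572), 25 and 22 under GC and length correction (0.0234) and 26 and 21 under chromosome correction (0.0589). Ndufv3, an accessory subunit of complex I, rose from 141 and 145 TPM to 257 and 265 TPM, and Cox6a1, of complex IV, from 226 and 229 TPM to 379 and 380 TPM. The log2 fold changes of the 80 genes lay between -0.375 and 0.867. Of the 13 mitochondrially encoded genes, 2 were higher (mt-Co1 and mt-Co2) and 2 lower (mt-Nd1 and mt-Atp8), and the median of 0.041 changed sign under median-of-ratios rescaling (-0.0731) and GC and length correction (-0.0565). mt-Nd1 lost its call without WT replicate 2 or without CypD KO replicate 1, and the value of mt-Atp8 is uncertain for the reasons given above.

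The machinery that imports and folds mitochondrial proteins was lower. Of 39 genes, 20 were lower and 3 higher (median -0.201). Hspd1, the chaperonin HSP60, fell from 2447 and 2454 TPM to 1262 and 1264 TPM (log2 fold change -0.956 ± 0.0205 SE, limma adjusted p = 5.92e-07), and its partner Hspe1 from 1232 and 1187 TPM to 681 and 718 TPM. The 2 genes share a promoter region and point in opposite directions. Tomm40, the channel of the outer membrane translocase, fell from 112 and 109 TPM to 75 and 75.3 TPM. Oma1 and Lonp1, proteases of mitochondrial quality control, went the other way, Lonp1 from 82.3 and 79.5 TPM to 114 and 113 TPM. Mitochondrial ribosomal proteins included 28 lower and 12 higher of 78 (median -0.14), and 42 to 49 lower and 5 higher under median-of-ratios rescaling, GC and length correction and chromosome correction, among them Mrpl11, which fell from 50.5 and 55.2 TPM to 28.3 and 32.7 TPM. In the tricarboxylic acid cycle, 6 of 21 genes were lower and 2 higher (19.2% and 31.7% over all genes), and the lower genes numbered 9 under median-of-ratios rescaling, 11 under GC and length correction and 9 under chromosome correction. Idh2, the mitochondrial isocitrate dehydrogenase that supplies NADPH, fell from 178 and 181 TPM to 77.2 and 78.5 TPM (-1.19 ± 0.0337, limma adjusted p = 1.03e-06).

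Genes of ribosome production were lower. Of 73 genes of ribosome biogenesis and the MYC network, 61 were lower and 5 higher, with a median of -0.407 that lay between -0.57 and -0.407 under the 5 scalings compared. The summed level of the 52 nucleolar factors went from 11872 and 12148 TPM in WT to 8003 and 8081 TPM in CypD KO. Fbl, the fibrillarin methyltransferase of ribosomal RNA, fell from 244 and 235 TPM to 126 and 122 TPM, Rrs1, a factor of the large subunit, from 134 and 132 TPM to 64.9 and 66.4 TPM, and Nolc1, a nucleolar phosphoprotein, from 251 and 253 TPM to 148 and 151 TPM. Each of these genes was lower in both CypD KO libraries than in either WT library, as were 3900 of the 12921 genes tested.

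Myc, the transcription factor that drives many of these genes, was at 99.1 and 93.3 TPM in WT against 45.5 and 44.4 TPM in CypD KO (log2 fold change -1.08 ± 0.0473 SE, limma adjusted p = 6e-06). Mxd4, a repressor that competes with MYC for the partner MAX, was higher, at 5.68 and 6.52 TPM in WT and 18.1 and 18.6 TPM in CypD KO. Mxi1, a repressor of the same family, was at 20.2 and 21 TPM in WT against 34.8 and 39 TPM in CypD KO. Both repressors were higher in each CypD KO library. Cytosolic ribosomal proteins had small changes, 65 of 78 lower and 2 higher (median -0.246), for example Rpl4 from 2018 and 2043 TPM to 1427 and 1444 TPM. Their summed level fell from 116714 and 113916 TPM to 98513 and 98572 TPM, and ribosomal protein genes have many processed pseudogenes that can share their reads. Among 35 proteasome genes, 28 were lower and 2 higher (median -0.298). Psmd8, a lid subunit, was the largest of the exceptions and rose from 304 and 285 TPM to 579 and 594 TPM.

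Genes of DNA replication were lower and inhibitors of the cell cycle higher. Of 49 replication genes, 32 were lower and 2 higher (median -0.262). Gins1, a component of the replicative helicase, fell from 42.4 and 40.8 TPM to 21.2 and 23.9 TPM, and Mcm10, which activates it, from 74.5 and 75.7 TPM to 46.9 and 46 TPM. Mitotic genes included 23 lower and 9 higher of 48 (19.2% and 31.7% over all genes, list median -0.102), and 35 lower and 4 higher under GC and length correction. Among the lower ones, Cdc25c, the phosphatase that triggers mitotic entry, fell from 32.7 and 37.7 TPM to 16.9 and 20.7 TPM. Of 27 genes of CDK inhibitors, D-type cyclins and p53 targets, 21 were higher and 1 lower, with a median of 0.88.

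Cdkn1a, encoding the CDK inhibitor p21, was at 165 and 154 TPM in WT against 459 and 450 TPM in CypD KO (log2 fold change 1.51 ± 0.0399 SE, limma adjusted p = 7.94e-07). Gadd45a, a stress-induced growth arrest gene, rose from 5.08 and 7.11 TPM to 37.7 and 37.3 TPM, Btg2 from 2.75 and 3.09 TPM to 12.5 and 12.5 TPM and Plk2 from 14.7 and 14.2 TPM to 55 and 53 TPM. Ccnd1, the cyclin D1 gene that promotes entry into S phase, also rose, from 135 and 136 TPM to 418 and 415 TPM. The single lower gene was Trp53 itself, at 136 and 133 TPM in WT against 117 and 123 TPM in CypD KO (log2 fold change -0.158, adjusted p = 0.0309), a call lost without WT replicate 1, WT replicate 2 or CypD KO replicate 1. Cdkn2a, which encodes p16 and p19ARF, was listed at 0 in all 4 libraries.

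**Figure D4:**
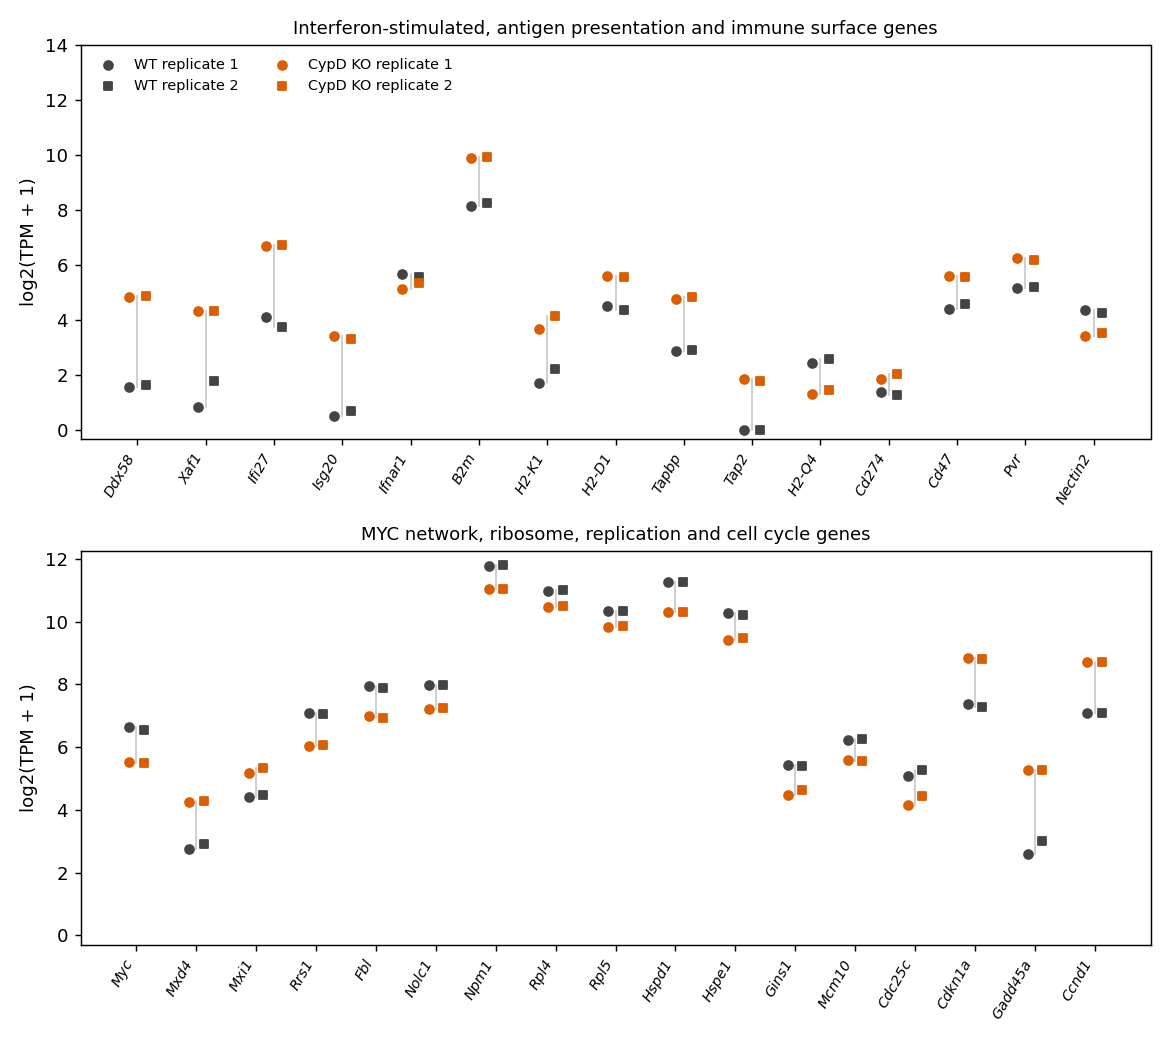
Level as log2(TPM + 1) (vertical axis) of named genes in each library, grey for WT and orange for CypD KO, circles for replicate 1 and squares for replicate 2. In the upper panel most interferon, antigen presentation and surface genes lie higher in both CypD KO libraries, with Ifnar1, H2-Q4 and Nectin2 lower; in the lower panel Myc, nucleolar, ribosomal, chaperonin and replication genes lie lower and Mxd4, Mxi1, Cdkn1a, Gadd45a and Ccnd1 higher.

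Interferon-stimulated genes, which defend cells against viruses, were higher. Of 64 listed genes 48 were tested, of which 35 were higher and 1 lower, 28 of them at least 2-fold higher, with a median of 1.24. The other 16 did not pass the filter on low values, and 13 of the 64 were under 1 TPM in all 4 libraries. A gene absent from WT could pass that filter only through its level in CypD KO, here and in the lists below. The levels were low in absolute terms, the members summing to 582 and 563 TPM in WT and to 1061 and 1066 TPM in CypD KO. Among the 14 tested sensors and transcription factors 6 were higher, and among the 34 tested effectors 29 were higher.

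Ddx58, the gene of the RNA sensor RIG-I, was at 1.96 and 2.16 TPM in WT against 27.9 and 28.7 TPM in CypD KO (log2 fold change 3.26 ± 0.128 SE, limma adjusted p = 3.66e-06). Xaf1, a pro-apoptotic gene, was at 0.81 and 2.48 TPM in WT against 18.9 and 18.9 TPM in CypD KO. Ifi27, a mitochondrial protein, was at 16.1 and 12.6 TPM in WT against 101 and 106 TPM in CypD KO, and Isg20, an antiviral exonuclease, at 0.43 and 0.62 TPM and at 9.63 and 9.04 TPM. All 4 genes were several times higher in each CypD KO library than in either WT library. Ifnar1, a receptor chain for type I interferon, was the lower gene, at 49.8 and 46.4 TPM in WT against 33.7 and 39.2 TPM in CypD KO (log2 fold change -0.395, adjusted p = 0.0096), and it lost the call without WT replicate 1 or CypD KO replicate 1.

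Interferon acts on many of these genes through a short element in their promoters. The promoters, taken as 250 bases before to 50 bases after the start of the canonical transcript of the GENCODE vM39 annotation, were read from GRCm39 and searched on both strands for GAAA, then any 2 bases, then again GAAA. The 6 genes below are those of the list with such a match and the largest increases, chosen after their values were seen, and they are shown to let the element be seen in place. Each sequence is 5′ to 3′ in the direction of transcription, with matches in capitals, read as TTTC, 2 bases and TTTC where they lie on the opposite strand. Overlapping matches appear as 1 longer run.
Ddx58, chr4:40239785-40240084, minus strand: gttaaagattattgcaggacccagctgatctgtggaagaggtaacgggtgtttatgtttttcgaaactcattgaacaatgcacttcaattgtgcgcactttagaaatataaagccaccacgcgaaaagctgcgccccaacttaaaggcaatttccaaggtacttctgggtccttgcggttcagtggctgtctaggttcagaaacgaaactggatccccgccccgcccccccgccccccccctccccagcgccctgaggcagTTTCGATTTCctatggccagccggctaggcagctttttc
Ifi27, chr12:103400167-103400466, plus strand: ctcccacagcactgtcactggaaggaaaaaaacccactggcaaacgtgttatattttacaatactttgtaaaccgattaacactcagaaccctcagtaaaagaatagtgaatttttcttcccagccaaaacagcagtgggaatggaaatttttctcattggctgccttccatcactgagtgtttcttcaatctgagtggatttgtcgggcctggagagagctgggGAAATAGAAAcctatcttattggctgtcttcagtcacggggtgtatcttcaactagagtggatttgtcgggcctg
Oas1a, chr5:121045561-121045860, minus strand: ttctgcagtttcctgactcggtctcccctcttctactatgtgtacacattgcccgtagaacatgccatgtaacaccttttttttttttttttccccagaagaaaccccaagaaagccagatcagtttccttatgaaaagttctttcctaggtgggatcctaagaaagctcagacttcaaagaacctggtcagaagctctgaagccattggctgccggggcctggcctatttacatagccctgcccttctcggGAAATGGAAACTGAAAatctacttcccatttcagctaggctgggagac
Isg15, chr4:156285254-156285553, minus strand: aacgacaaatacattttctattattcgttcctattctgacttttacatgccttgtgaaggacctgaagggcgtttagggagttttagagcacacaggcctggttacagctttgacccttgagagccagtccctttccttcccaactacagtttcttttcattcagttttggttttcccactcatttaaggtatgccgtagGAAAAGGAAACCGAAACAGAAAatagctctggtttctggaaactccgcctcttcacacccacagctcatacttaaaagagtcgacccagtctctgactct
Usp18, chr6:121222607-121222906, plus strand: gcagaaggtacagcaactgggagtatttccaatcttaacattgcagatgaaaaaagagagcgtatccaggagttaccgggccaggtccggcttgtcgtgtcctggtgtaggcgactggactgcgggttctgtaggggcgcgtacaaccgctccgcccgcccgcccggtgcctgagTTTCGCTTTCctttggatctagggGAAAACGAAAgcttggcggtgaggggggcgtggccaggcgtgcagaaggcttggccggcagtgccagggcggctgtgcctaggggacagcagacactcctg
Irgm2, chr11:58090194-58090493, plus strand: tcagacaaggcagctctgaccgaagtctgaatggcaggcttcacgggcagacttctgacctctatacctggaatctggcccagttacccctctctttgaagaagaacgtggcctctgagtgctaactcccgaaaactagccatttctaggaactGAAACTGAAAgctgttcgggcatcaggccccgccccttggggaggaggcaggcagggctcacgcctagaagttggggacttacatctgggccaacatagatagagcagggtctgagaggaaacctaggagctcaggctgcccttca

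The levels of the other 4 of these genes were low in both groups. Isg15, a ubiquitin-like modifier, has overlapping matches in its promoter and went from 1.43 and 0.96 TPM to 9.91 and 9.61 TPM. Usp18, the protease that removes ISG15 from proteins, went from 0.36 and 0.25 TPM to 5.21 and 4.2 TPM. Oas1a, which makes the activator of RNase L, was listed at 0 and at 0.21 TPM in WT against 5.65 and 5.53 TPM in CypD KO, and Irgm2, an immunity-related GTPase, was at 0.17 and 0.18 TPM and at 3.8 and 4.1 TPM. Oas1a has close paralogs that can share its reads.

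The element was found in 3.25% of the 11146 promoters of protein-coding genes tested, in 22 of the 48 interferon-list promoters (45.8%), in 6.51% of the 891 promoters of genes at least 2-fold higher and in 1.25% of the 160 of genes at least 2-fold lower. Within the list, 15 of the 22 genes with the element and 13 of the 26 without it were at least 2-fold higher. Outside the list, 43 of 340 genes with the element (12.6%) and 7.62% of the 10758 genes without it were at least 2-fold higher. These shares are descriptions and were not tested.

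Genes of antigen presentation were also higher. Of 17 tested genes of MHC class I and antigen processing, 12 were higher and 3 lower (median 1.08). B2m, the light chain shared by all class I molecules, was at 281 and 303 TPM in WT against 954 and 975 TPM in CypD KO (log2 fold change 1.72 ± 0.0448 SE, limma adjusted p = 7.93e-07). H2-K1 and H2-D1, the classical heavy chains of this strain, were at far lower levels, H2-K1 at 2.26 and 3.64 TPM in WT against 11.7 and 16.9 TPM in CypD KO, and H2-D1 at 22 and 19.5 TPM and at 48.1 and 46 TPM. Tap2, a chain of the peptide transporter, was listed at 0 in WT but at 2.62 and 2.44 TPM in CypD KO, and Tapbp, the tapasin that loads peptides, rose from 6.41 and 6.5 TPM to 26.5 and 27.4 TPM. H2-Q4, a nonclassical heavy chain, fell from 4.49 and 4.99 TPM to 1.51 and 1.73 TPM. The H2 heavy chain genes are highly similar, and the values of single members are uncertain.

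Of 10 tested immune surface genes, 8 were higher and 1 lower. Cd47, the "do not eat me" ligand, rose from 20.1 and 23.2 TPM to 47.6 and 46.2 TPM, and Pvr, a ligand of activating and inhibitory lymphocyte receptors, from 34.5 and 35.6 TPM to 76.2 and 71.3 TPM. Nectin2, a related ligand, fell from 19.7 and 18.3 TPM to 9.82 and 10.6 TPM. Cd274, encoding PD-L1, was low, at 1.6 and 1.43 TPM in WT against 2.66 and 3.09 TPM in CypD KO (log2 fold change 0.622, limma adjusted p = 0.00999), and lost the call without CypD KO replicate 2.

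Cytokine genes were mostly silent, with 25 of 42 under 1 TPM in all 4 libraries. Of the 16 tested, 12 were higher and 2 lower (median 1.17). Spp1, the matricellular cytokine osteopontin, rose from 4.68 and 2.96 TPM to 49.7 and 47.9 TPM (log2 fold change 3.39 ± 0.169 SE, limma adjusted p = 9.62e-06). Lif, of the interleukin 6 family, rose from 0.47 and 0.4 TPM to 9.62 and 9.18 TPM, and Il33, a nuclear alarmin, from 1.38 and 1.49 TPM to 10 and 7.99 TPM. Cxcl10, a chemokine that interferon usually induces, fell from 15.2 and 16.1 TPM to 7.23 and 7.58 TPM. This gene thus changed opposite to most of the interferon list. In the NF-kappaB list 21 of 34 genes were higher and 1 lower (median 0.525). The 14 subunits and inhibitors lay between -0.728 and 0.833 on the log2 scale, while 8 of 20 targets were at least 2-fold higher, such as Tnfaip2 from 6.58 and 6.69 TPM to 31.2 and 34.5 TPM and Dusp1, a MAP kinase phosphatase, from 5.95 and 7.58 TPM to 37.9 and 36.4 TPM. Nfkbib, an inhibitor of NF-kappaB, fell from 40.1 and 38.1 TPM to 24.2 and 22.2 TPM.

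The melanocyte program did not move as 1 unit. Of 31 tested genes of lineage and pigmentation, 16 were lower and 6 higher (19.2% and 31.7% over all genes, list median -0.188). Mitf, the master regulator of the lineage, was at 277 and 281 TPM in WT against 280 and 265 TPM in CypD KO and was not called (log2 fold change -0.0312, limma adjusted p = 0.586), but was called lower under median-of-ratios rescaling (-0.145), GC and length correction (-0.184) and chromosome correction (-0.316). Pmel, the fibril protein of melanosomes, fell from 2375 and 2309 TPM to 1530 and 1478 TPM, Mlana from 1540 and 1511 TPM to 1046 and 1056 TPM and Sox10 from 231 and 239 TPM to 187 and 188 TPM. These decreases were well under 2-fold and without overlap of libraries.

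Larger decreases were those of Kit, the stem cell factor receptor, from 6.81 and 7.62 TPM to 0.92 and 1.24 TPM (log2 fold change -1.98), Trpm1, an ion channel gene activated by MITF, from 150 and 145 TPM to 44.3 and 38.4 TPM (-1.81), and Rab32, a GTPase of melanosome transport, from 55.5 and 51.2 TPM to 20.7 and 20.5 TPM (-1.33). Against this, Tyr, the tyrosinase that starts melanin synthesis, rose from 37.4 and 41.2 TPM to 167 and 147 TPM (1.97 ± 0.0705 SE, limma adjusted p = 2.66e-06). Gpnmb, described above, rose 2.03 times. Dct, which acts after tyrosinase in the same pathway, fell from 3346 and 3286 TPM to 2777 and 2775 TPM.

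Genes of undifferentiated melanoma were higher in several cases. Of 14 tested genes of this state and of the neural crest, 9 were higher and 4 lower (median 0.716), and 14 of the 29 listed were under 1 TPM throughout. The 10 tested genes of undifferentiated melanoma included 8 higher and 2 lower (median 0.805). The 4 of the neural crest included 1 higher and 2 lower (median -0.26). Axl, a receptor tyrosine kinase of invasive melanoma, rose from 8.22 and 6.42 TPM to 45 and 42 TPM (log2 fold change 2.43, limma adjusted p = 0.000163). The AP-1 genes Jun and Fosl2 rose from 16.1 and 14.6 TPM to 62.5 and 65.4 TPM and from 5.87 and 5.85 TPM to 27.7 and 29.8 TPM. Nes, the neural stem cell filament, fell from 34.3 and 37.7 TPM to 25.9 and 26 TPM. Of 18 growth factor receptors 8 were higher and 6 lower (median 0.0847), and of 17 genes of MAP kinase feedback 13 were higher and 1 lower (median 0.553). Over all genes, 31.7% were higher and 19.2% lower. Among the receptors, Kit fell as given above and Epha2, an ephrin receptor, rose from 1.28 and 1.58 TPM to 12.1 and 11.3 TPM.

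Genes of the cell surface, cytoskeleton and calcium binding were higher in broad groups. Among S100 and annexin genes, 16 of 19 were higher and 1 lower (median 1.11). Beside S100a4 and S100a6, S100a11 rose from 260 and 282 TPM to 1002 and 1038 TPM and Anxa2, a membrane-binding annexin, from 177 and 180 TPM to 705 and 690 TPM (log2 fold change 1.96 ± 0.036 SE, limma adjusted p = 3.99e-07). The annexins together went from 894 and 875 TPM to 2098 and 2073 TPM.

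Of 44 genes of actin, SRF and YAP, 34 were higher and 3 lower (median 0.794). Ccn1 and Ccn2, matricellular targets of YAP, rose from 36.7 and 39.4 TPM to 214 and 214 TPM and from 9.01 and 11.7 TPM to 121 and 122 TPM. Acta2, smooth muscle actin, was listed at 0 in WT but at 4.96 and 7.99 TPM in CypD KO. Several of these genes also stand in the transition list. Of 27 integrin and laminin genes, 15 were higher and 5 lower (31.7% and 19.2% over all genes). Itga5, a fibronectin receptor chain, rose from 3.86 and 3.41 TPM to 36.5 and 34.2 TPM and Lamb1, a laminin chain, from 6.21 and 5.74 TPM to 39.7 and 38.5 TPM. Itga9 fell from 10.1 and 8.97 TPM to 3.16 and 4.16 TPM. Of 7 tested caveola genes 3 were higher and 1 lower (31.7% and 19.2% over all genes). The caveolin genes Cav1 and Cav2 rose from 6.7 and 7.35 TPM to 40.5 and 42.9 TPM and from 46.8 and 49.3 TPM to 149 and 142 TPM, whereas Cavin1, a coat protein of caveolae, fell from 24.6 and 25.1 TPM to 17.9 and 18.1 TPM.

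All 6 tested clade B serpins were at least 2-fold higher, and the other 22 genes of that list were under 1 TPM in all 4 libraries. Beside Serpinb9b and Serpinb8, Serpinb9, an inhibitor of granzyme B, rose from 0.93 and 0.82 TPM to 10 and 9.09 TPM. Serpinb9b and Serpinb9 are similar in sequence. Of 18 tested complement and coagulation genes 16 were higher, 12 of them at least 2-fold higher, with a median of 1.67. The plasminogen activators rose, Plat from 1.64 and 1.48 TPM to 13.5 and 12.6 TPM and Plau from 0.22 and 0.18 TPM to 3.68 and 2.6 TPM, as did the urokinase receptor Plaur, from 11.6 and 9.32 TPM to 61.4 and 62.4 TPM. C1s1, a complement protease, rose from 0.2 and 0.67 TPM to 6.48 and 7.32 TPM.

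The promoters of 5 genes among the largest increases and decreases named above are shown, chosen after their values were seen. Others of these genes, such as Aqp5 (log2 fold change 4.4) and Rhox5 (-4.15), are not shown. The 5 promoters were read in the same way, and capitals mark, on either strand, the TATA box as TATAAA, the CCAAT box, the AP-1 site as TGANTCA with N for any base, and the interferon element.
S100a4, chr3:90510825-90511124, plus strand: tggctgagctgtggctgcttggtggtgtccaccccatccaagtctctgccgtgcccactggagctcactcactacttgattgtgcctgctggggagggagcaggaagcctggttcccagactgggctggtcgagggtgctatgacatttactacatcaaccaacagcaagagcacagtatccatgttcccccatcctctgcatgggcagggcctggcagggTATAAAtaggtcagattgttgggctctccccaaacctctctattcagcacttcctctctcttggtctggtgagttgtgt
S100a6, chr3:90519890-90520189, plus strand: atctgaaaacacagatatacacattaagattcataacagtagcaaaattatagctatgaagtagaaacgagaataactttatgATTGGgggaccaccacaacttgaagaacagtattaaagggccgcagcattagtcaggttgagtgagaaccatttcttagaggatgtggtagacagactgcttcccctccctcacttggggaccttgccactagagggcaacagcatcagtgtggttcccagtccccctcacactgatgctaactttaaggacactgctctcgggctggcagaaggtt
Lgals3, chr14:47611096-47611395, plus strand: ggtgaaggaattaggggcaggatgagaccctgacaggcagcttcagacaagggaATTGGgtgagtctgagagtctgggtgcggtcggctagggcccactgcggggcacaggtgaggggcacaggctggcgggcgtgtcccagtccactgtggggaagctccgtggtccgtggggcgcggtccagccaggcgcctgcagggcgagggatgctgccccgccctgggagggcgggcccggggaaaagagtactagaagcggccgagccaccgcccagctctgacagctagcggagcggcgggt
Serpinb9b, chr13:33211149-33211448, plus strand: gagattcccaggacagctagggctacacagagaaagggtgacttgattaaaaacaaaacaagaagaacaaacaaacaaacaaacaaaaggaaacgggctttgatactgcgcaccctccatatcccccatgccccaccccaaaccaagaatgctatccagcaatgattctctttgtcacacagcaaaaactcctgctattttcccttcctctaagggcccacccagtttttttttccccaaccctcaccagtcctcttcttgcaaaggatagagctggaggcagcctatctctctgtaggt
Enpp2, chr15:54784057-54784356, minus strand: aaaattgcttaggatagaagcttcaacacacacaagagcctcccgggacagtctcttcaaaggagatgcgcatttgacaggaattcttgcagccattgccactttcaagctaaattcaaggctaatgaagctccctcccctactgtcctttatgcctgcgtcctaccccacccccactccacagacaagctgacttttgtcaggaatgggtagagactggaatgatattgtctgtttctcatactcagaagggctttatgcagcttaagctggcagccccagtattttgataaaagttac

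S100a4 has a TATAAA on the coding strand shortly before its start, and S100a6 and Lgals3 hold a CCAAT on the opposite strand. Neither Serpinb9b nor Enpp2 holds any of the 4 capitalised motifs in this window. CG dinucleotides number 20 in the Lgals3 window and 2 or 3 in each of the other 4. Over the promoters of genes at least 2-fold higher and at least 2-fold lower the median number of CG was 13 in each set, against 18 over all promoters. TGANTCA was found in 8.64% of the promoters of genes at least 2-fold higher, in 5% of those of genes at least 2-fold lower and in 5.02% of all. The other motifs searched were the E-box CACGTG, the M-box TCATGTG, the GC box GGGCGG, the TEAD site GGAATG and, as cores of hypoxia response, ACGTG (which the E-box contains) and GCGTG. Either hypoxia core was present in 53.4% of the promoters of genes at least 2-fold higher outside the hypoxia and transition lists, in 74.7% of the hypoxia list and in 63.1% of all.

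Lysosomal genes were higher. Of 50 lysosomal genes, 39 were higher and 5 lower (median 0.444, and 0.287 to 0.444 under the 5 scalings). Acid hydrolases accounted for 24 of these, with Ctsb, cathepsin B, from 131 and 128 TPM to 481 and 468 TPM (log2 fold change 1.87 ± 0.0405 SE, limma adjusted p = 6e-07) and Ctsh from 4.52 and 4.51 TPM to 34.5 and 27.5 TPM. Tfeb, the transcription factor of lysosome formation, was among the lower genes, from 7.08 and 6.61 TPM to 4.35 and 5.06 TPM, a call lost without CypD KO replicate 1.

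In the unfolded protein response 13 of 24 genes were lower and 6 higher (median -0.187). The chaperone Hsp90b1 fell from 1522 and 1543 TPM to 1190 and 1228 TPM, while Ern1, the sensor IRE1, rose from 10.5 and 10.2 TPM to 37.5 and 35.4 TPM. Among 29 genes of the ATF4 amino acid response, 16 were higher and 6 lower (31.7% and 19.2% over all genes), and 13 higher under median-of-ratios rescaling, GC and length correction and chromosome correction, where the median went from 0.204 to 0.0998, 0.0577 and 0.0567. Examples were Nupr1 from 4.47 and 3.38 TPM to 27.8 and 30.1 TPM and the inhibitor of mTOR Ddit4 from 9.3 and 7.6 TPM to 39.8 and 40.1 TPM, but Shmt2, a mitochondrial enzyme of serine metabolism, from 155 and 149 TPM to 100 and 99.6 TPM.

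Antioxidant genes went both ways, with 17 higher and 15 lower of 45 and a median of 0.00968 that became negative under median-of-ratios rescaling (-0.0912), GC and length correction (-0.154) and chromosome correction (-0.041). Hmox1, heme oxygenase, rose from 38.8 and 40.8 TPM to 192 and 193 TPM (log2 fold change 2.25 ± 0.0474 SE, limma adjusted p = 5.78e-07), and Sod3, the extracellular superoxide dismutase, from 4.94 and 5.62 TPM to 27.9 and 27.2 TPM. Nqo1, a classical target of NRF2, fell from 7.04 and 6.87 TPM to 3.24 and 2.97 TPM. Cholesterol genes included 10 lower and 5 higher of 31 (19.2% and 31.7% over all genes), and between 17 and 20 lower under median-of-ratios rescaling, GC and length correction and chromosome correction. Of 20 aminoacyl-tRNA synthetases, 7 were lower and 5 higher (19.2% and 31.7% over all genes, list median -0.102). Under both median-of-ratios rescaling and GC and length correction 12 were lower and 1 higher, and under chromosome correction 10 and 1. Mars1 fell from 46.7 and 44.1 TPM to 32.2 and 31.1 TPM. Of 7 tested genes of lysophosphatidic acid signalling 2 were lower, Enpp2 and the receptor Lpar5, the latter from 14.7 and 14.2 TPM to 2.94 and 5.1 TPM, and 2 were higher, Plpp1, a phosphatase that degrades the lipid, from 10.8 and 11 TPM to 24.9 and 23.3 TPM, and Pla2g4a, whose call was lost under 11 of the 15 alternatives.

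Markers of other cell types moved with some of these groups. Of 8 macrophage markers, Cd68 rose from 3.75 and 3.45 TPM to 21.9 and 23.3 TPM and Lyz2 from 0.64 and 0.17 TPM to 1.85 and 1.8 TPM, while Adgre1 and Cd14 were listed at 0 in all 4 libraries and Ptprc reached 0.02 TPM. The list summed to 4.48 and 3.67 TPM in WT and to 24.3 and 25.4 TPM in CypD KO. Of 8 fibroblast markers, Dcn, Lum and Thy1 were listed at 0 throughout, Col1a1 rose from 2.22 and 1.66 TPM to 38.5 and 41.1 TPM, Postn from 8.04 and 8.07 TPM to 34.8 and 31.2 TPM, and Col1a2 fell from 9.03 and 6.87 TPM to 1.09 and 2.17 TPM. The fibroblast sum went from 19.9 and 17.3 TPM to 75.7 and 75.3 TPM. Among 6 Schwann cell markers, Mbp fell as given above, while S100b rose from 24.9 and 23.2 TPM to 54.5 and 52.6 TPM. Of the macrophage markers 2 were high enough to be tested and both were higher, and of the fibroblast markers 3 were tested, 2 higher and 1 lower. The part of these markers in the other results was not tested.

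Changes were unevenly spread over the genome. Median log2 fold changes per chromosome ran from 0.0017 on chromosome 1 (724 genes) to 0.268 on chromosome 6 (676 genes), followed by 0.217 on chromosome 8, 0.204 on chromosome 3 and 0.201 on chromosome 13. In each of the 4 pairings of 1 CypD KO with 1 WT library, the median of chromosome 6 lay between 0.263 and 0.286, that of chromosome 8 between 0.22 and 0.228 and that of chromosome 1 between -0.0435 and 0.0125. Genes at least 2-fold higher made up 12.3% of chromosome 6 and 12.4% of chromosome 3. With each gene corrected by the median of its chromosome, 834 genes were at least 2-fold higher and 261 at least 2-fold lower. DNA copy number was not analysed here.

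**Figure D5:**
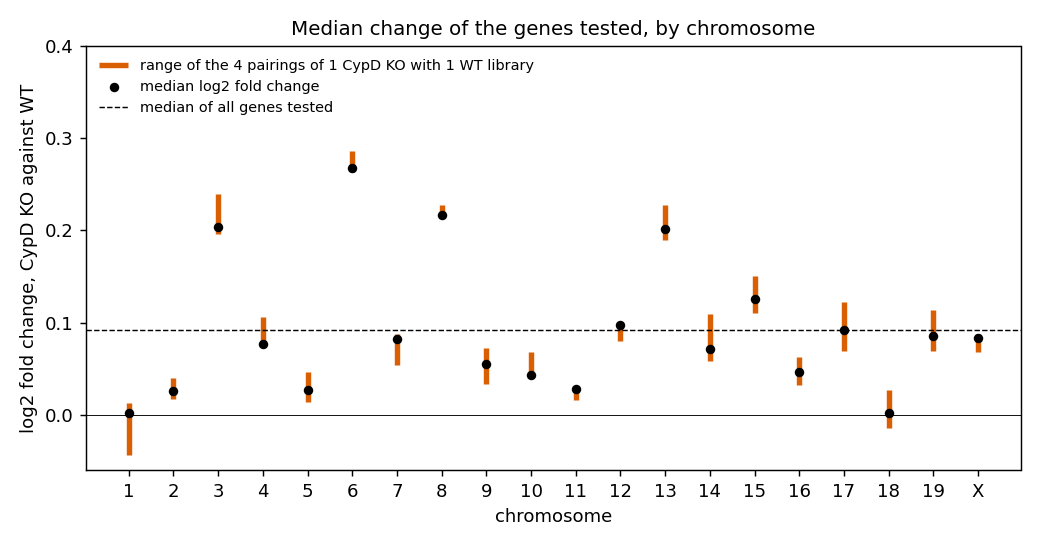
Median log2 fold change of CypD KO against WT (vertical axis) of the genes tested on each chromosome (horizontal axis), as black points, with the range over the 4 pairings of 1 CypD KO with 1 WT library as orange bars and the median of all genes, 0.0915, as a dashed line. Chromosomes 3, 6, 8 and 13 lie above 0.2, and every pairing of these 4 lies above the dashed line.

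Of 220 windows of 10 megabases with at least 20 genes, the highest median was 0.767 on chromosome 6 (chr6:10000001-20000000, 22 genes), which holds Cav1 and Cav2, and the lowest was -0.266 on chromosome 3 (chr3:130000001-140000000, 39 genes). The window at chr3:90000001-100000000 with the S100 genes had a median of 0.399 over 117 genes, 21 of them at least 2-fold higher. Over all genes tested, 7.81% were at least 2-fold higher and 1.57% at least 2-fold lower, so runs of higher genes have more genes to form from. There were 26 runs of 3 or more adjacent tested genes all at least 2-fold changed in 1 direction, and 25 were higher. The longest, at chr13:33065201-34186812, held 6 genes, Serpinb1c, Serpinb6b, Serpinb9, Serpinb9b, Serpinb6a and 1110046J04Rik. The next, at chr7:103893663-104157107, held 5 TRIM genes including Trim30a. Shorter runs included S100a4, S100a6 and S100a8 on chromosome 3, Gbp7, Gbp3 and Gbp2 further along it, Ifit3, Ifit3b and Ifit1 on chromosome 19 and Parp14, Dtx3l and Parp9 on chromosome 16. The runs and windows were picked by these values and are given as a description, and their members outside the rule for named genes were chosen after their values were seen. These neighbours are partly gene families with similar sequences, which can share reads.

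The 4 libraries at 1% oxygen allowed a separate look at the same genes. In the libraries labelled CypD OE, Ppif was at 50.3 and 49.3 TPM against 44.6 and 42.2 TPM in Control and was not called (limma adjusted p = 0.0771), so these libraries are named by their label only. Over all genes tested, 354 (2.74%) were at least 2-fold lower and 223 (1.73%) at least 2-fold higher in CypD OE than in Control. Of the 925 genes at least 2-fold higher in CypD KO outside the hypoxia and transition lists, 8.22% were at least 2-fold lower and 3.89% at least 2-fold higher in CypD OE. Of the 200 genes at least 2-fold lower in CypD KO outside these lists, 17.5% were also at least 2-fold lower and 9.5% at least 2-fold higher in CypD OE. Each of these 4 shares lies above the share over all genes, which was not tested, and the oxygen level also differs between the comparisons.

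Single genes, chosen here after their values were seen, moved in either way. Lgals3 and Anxa2 were higher in CypD KO and lower in CypD OE (log2 fold changes of -1.13 and -1.3 in CypD OE against Control, limma adjusted p = 6.45e-05 and 1.19e-06), and Myc was lower in CypD KO and higher in CypD OE (0.748, adjusted p = 4.87e-05). Mest was lower in CypD KO and higher in CypD OE (2.32, adjusted p = 9.63e-07). Rhox5, Mmp11, Bfsp2 and Trpm1 were lower in both comparisons, with -4.33, -4.78, -2.72 and -5.03 in CypD OE. For B2m, which was higher in CypD KO, the value in CypD OE was 0.00144 (adjusted p = 0.987).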

How the data were processed

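RNA-seq libraries of B16F10 cells were analysed from a table of TPM values deposited by the authors, who per the study's methods trimmed reads with Cutadapt, aligned them with STAR to Ensembl GRCm39 and quantified genes with RSEM. The submitters' processing notes give Cutadapt 3.4, STAR 2.7.8a and RSEM 1.3.1. Since TPM values are shares of a fixed total, a rise in some genes lowers the others. Every value column carried a sample (0 columns did not).

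Genes reaching 1 TPM in 2 or more of the 4 WT and CypD KO libraries were kept, and log2(TPM + 1) was fitted in R 4.3.3 with limma 3.58.1 (lmFit, eBayes with trend) over all 8 libraries and 4 group means. P-values were adjusted by Benjamini-Hochberg over 12921 genes. A call needs an adjusted p under 0.05, and a 2-fold call also a log2 fold change of at least 1. Fold changes are on the log2(TPM + 1) scale and understate the change of low genes. The study tested counts with another tool, and limma was used because the unit here is TPM. The script was tested on simulated data.

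Named genes were Ppif, the 10 largest increases and decreases among called protein-coding genes without overlap of libraries and with at least 10 TPM in the higher group, outside the hypoxia, transition and histone genes, up to 4 genes per list in its main direction and 2 in the other, 21 genes fixed by name, the 5 largest rises and falls in TPM, and genes under 0.1 TPM in one group and at 5 TPM or more in the other. Some genes that this rule names are not reported here. The lists and members were chosen with earlier results of these data known. Fragments were estimated from the steps between low TPM values, of which 85.1% to 86.7% were whole within 0.15 in the WT and CypD KO libraries, where 30% would be by even spacing. Gene positions and promoters come from GENCODE vM39 on GRCm39, in which 98.8% of gene identifiers were found. Alternatives were other pseudocounts, filters, scalings, corrections for GC content and length and for chromosome, the 4 libraries alone, eBayes without trend, a replicate block and each library left out.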

Additional observations from a re-analysis of the deposited data

How the results depend on the processing

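The 15 alternatives were compared over 208 named genes. Of 3100 values, 3005 kept their direction and side of the threshold, 88 lost the call, 3 gained one and 4 changed sign. The sign changes were those of Rpa3 (-0.153) and Psmd4 (-0.00864) under chromosome correction and of Aars under GC and length correction (-0.0643) and chromosome correction (-0.0536). The list medians of mitochondrially encoded genes (-0.0731 under median-of-ratios rescaling and -0.0565 under GC and length correction) and of lysophosphatidic acid genes (-0.0108 with a minimum of 5 TPM) also changed sign, as did those of pore and uniporter genes, antioxidant genes and caveola genes (the last to -0.00335 under GC and length correction). By more than the spread between replicate pairs, 31 of the 33 list medians moved under GC and length correction, 26 under chromosome correction and 25 under median-of-ratios rescaling. Under GC and length correction and median-of-ratios rescaling, 1 more moved by that much, the median of mitochondrially encoded genes, which changed sign. The cause was not tested. Counts of genes stayed within 1.5 times the main ones except genes lower under GC and length correction (4098) and genes at least 2-fold lower with a minimum of 5 TPM (132, from fewer genes tested) or under GC and length correction (311, the cause was not tested).

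Leaving out 1 library at a time gave 3185 to 3452 genes higher, 1965 to 2061 lower, 997 to 1028 at least 2-fold higher and 207 to 227 at least 2-fold lower. In all 19 named genes lost the call without 1 library. With the replicate block, 3966 genes were higher, 2419 lower, 1010 at least 2-fold higher and 209 at least 2-fold lower. The labels give only the shared number, and the deviations of WT and CypD KO libraries of the same number correlated at 0.142 over genes. Depth limits genes near 1 TPM, where a value rests on few fragments, and with 2 libraries a group the spread rests largely on the model across genes.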
